A study of Homo sapiens with 9 samples.

Results

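The replication-dependent histone genes encode the linker histone H1 and the core histones H2A, H2B, H3 and H4 that package DNA as it is copied. They were chosen by name, as the rows of the count table that carry the current symbols of the H1 genes H1-1 to H1-6 and of the numbered H2AC, H2BC, H3C and H4C genes. No measured value decided which genes are members, but the family was chosen with earlier results of these data known. The table held 66 such genes among 59453 gene names: 6 of H1, 16 of H2A, 17 of H2B, 13 of H3 and 14 of H4. Of these, 55 lie on chromosome 6 and 11 on chromosome 1.

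MDA-MB-231, an established human line of triple-negative breast cancer, was sequenced by RNA-Seq. Cells were left untreated or were treated with the copper chelator TEPA for 8 h or 24 h, with 3 replicates in each group. The TEPA concentration is 8 mM in the sample labels and 4 mM in the study's RNA sequencing methods, and a single untreated group serves both times. No time is stated for the untreated cells, so time in culture and time with TEPA cannot be told apart. The labels do not state whether replicates were separate cultures, so the p-values below measure the spread between these libraries, which may be technical. Total counts ran from 34633755 to 49342659 per library.

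In most animal cells these mRNAs end in a short stem-loop in place of a poly(A) tail. They are made in S phase, when NPAT drives their transcription and the stem-loop binding protein SLBP guides the cut of the 3′ end, and they are degraded when DNA synthesis stops. A histone gene of this family can also give a polyadenylated transcript that runs on past the stem-loop, and such transcripts are known from cells that leave the cycle. The libraries here were made with a TruSeq stranded mRNA kit, which selects RNA by its poly(A) tail, so the counts cover the family only as far as its transcripts passed that selection.

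The stem-loop is shown first because it sets the family apart in sequence. A pattern of 16 bases on the gene strand was used, with 10 fixed letters, which can be read in each sequence printed below, and any base at positions 3, 4, 8, 10, 13 and 14, counted from 1 at the 5′ end. It was searched in the 150 bases of genome that follow each annotated stop codon in GENCODE v44 on hg38, and it was found in 66 of 66 members and in 7 of 19881 windows of other protein-coding genes (0.0352%). The same 16 bases stood in 38 members of the H1, H2A, H2B and H3 classes, and another form with a changed loop base stood in 9 more of those classes, H2BC12 and H2BC5 among them. None of the 14 H4 genes carried either form: 9 carried a form with another base pair in the stem, and 4 carried that stem with a further loop base. Capitals mark the stem-loop and small letters the flanking 5 bases on each side, for the genes of each class whose values are described most fully below.
H1-2: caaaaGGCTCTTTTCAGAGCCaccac
H2AC6: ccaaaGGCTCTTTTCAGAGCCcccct
H2AC11: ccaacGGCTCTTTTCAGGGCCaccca
H2BC12: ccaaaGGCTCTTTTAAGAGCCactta
H2BC5: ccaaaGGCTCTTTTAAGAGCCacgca
H2BC6: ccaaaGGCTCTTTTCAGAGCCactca
H3C10: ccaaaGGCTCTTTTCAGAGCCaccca
H4C8: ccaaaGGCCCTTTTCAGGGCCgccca
On hg38 the capitals of H2BC12 lie at chr6:27146366-27146381 on the minus strand, those of H1-2 at chr6:26055744-26055759 on the minus strand, those of H2AC6 at chr6:26124669-26124684 on the plus strand and those of H2BC6 at chr6:26184210-26184225 on the plus strand, each in the 3′ untranslated end of its gene.

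A total of 44 of the 66 genes had at least 1 count in some library, and 22 had 0 in all 9 libraries, as had 49.4% of all gene names. Together the 66 genes held 23541 counts, 0.0064% of all counts, or between 43.3 and 82.1 of every 1000000 counts in the different libraries. Only 18 genes (27.3%) passed the expression filter of edgeR with a minimum count of 10, against 27.8% of all gene names in the table. These 18 were 2 of 6 H1 genes, 3 of 16 H2A genes, 9 of 17 H2B genes, 2 of 13 H3 genes and 2 of 14 H4 genes, and they held 97.4% of the family's counts. Of the other 48 genes, 19 had between 10 and 70 counts over the 9 libraries and 7 had between 1 and 9. Those with the most counts were H3C2 with 70, H2AC12 with 65, H3C12 with 53 and H3C13 with 51. Counts of genes below refer to the 18 genes that could be tested and not to the family as a whole, since a gene high in a single group could pass the filter through that group.

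One gene led each class except H3. H2BC12 held 70.1% of the H2B counts and 39.5% of those of the whole family. H1-2 held 96.6% of the H1 counts, H2AC6 72.8% of H2A and H4C8 59.5% of H4. In H3, H3C10 had 168 counts (30.8%) and H3C3 had 163. H3C3 was the higher of both in mean CPM in untreated cells (0.431 against 0.370) and at 8 h (0.407 against 0.285). Per kilobase of annotated exon, H2BC12 was highest in untreated cells with 57.4 CPM per kb (CPM are counts per 1000000, with library sizes scaled by TMM). H1-2 followed with 20.05, H2BC5 with 6.51, H2AC6 with 4.58, H2AC11 with 2.56 and H2AC20 with 1.93 CPM per kb. Annotated exons beyond the stem-loop count in this length and lower the value of genes that have them. H2AC6, with 1668 bases of exon, lay above H2BC5, with 861, in mean untreated CPM (7.64 against 5.61). At 24 h H2BC12 stood at 56.0 and H1-2 at 24.6 CPM per kb, and at 8 h at 38.7 and 13.1 CPM per kb, so their order was the same in each group.

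**Figure D1:**
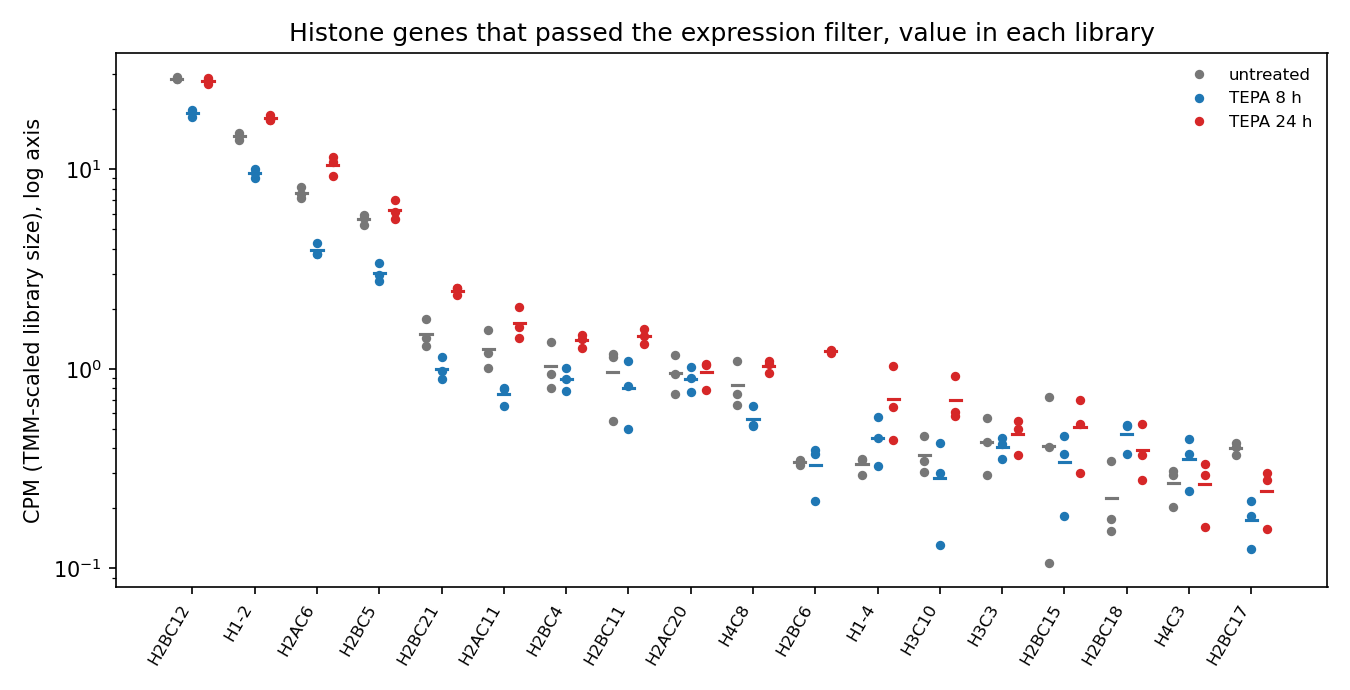
CPM of the 18 histone genes that passed the filter (log axis) in each untreated (grey), TEPA 8 h (blue) and TEPA 24 h (red) library, with points for libraries and short lines for group means. H2BC12, H1-2, H2AC6 and H2BC5 lie well above the others, and their 3 libraries at 8 h all lie below the untreated ones.

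The annotated 3′ end divides the family. In GENCODE v44, 13 members have an exon that ends more than 500 bases beyond the stem-loop, and 9 of these are among the 18 genes that passed: H2BC4, H2AC6, H2BC5, H4C8, H2BC11, H3C10, H2BC15, H2BC18 and H2BC21. The farthest annotated end lies 14432 bases beyond the stem-loop in H2AC6, 12747 in H2BC5, 1729 in H2BC21 and 769 in H3C10. In H2BC12 it lies 5 bases and in H1-2 4 bases beyond the stem-loop, and these were the 2 highest genes in CPM as well as per kb of exon. This annotation is later than the Ensembl release 103 with which the authors counted, and exons of the 2 releases were not compared.

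Counts at 0 were grouped along chromosome 6. Between H2BC6, with 239 counts, and H4C8, with 301 counts, all 19 gene names, histone genes and pseudogenes from H4C4 to H2BC10 (chr6:26188710-26273412, 84703 bases), had 0 counts in every library, and 15 of them were members. A second run of 5 names from H2BC16P to H4C13 (chr6:27864062-27873534, 9473 bases), with 4 members, lay between H2BC15, with 157 counts, and H3C12, with 53 counts. The members in the runs include 2 H1 genes, H1-3 and H1-5. A count of 0 allows up to 3 counts in a library, so these genes were not detected in the counts and are not shown to be absent. The cause of the zeros was not tested. None of the 100-base stretches of the members in the runs occurs in another annotated histone gene or histone pseudogene, and other genes were not searched. The 3 other members at 0 were H2AC1, H2BC1 and H3C14.

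**Figure D2:**
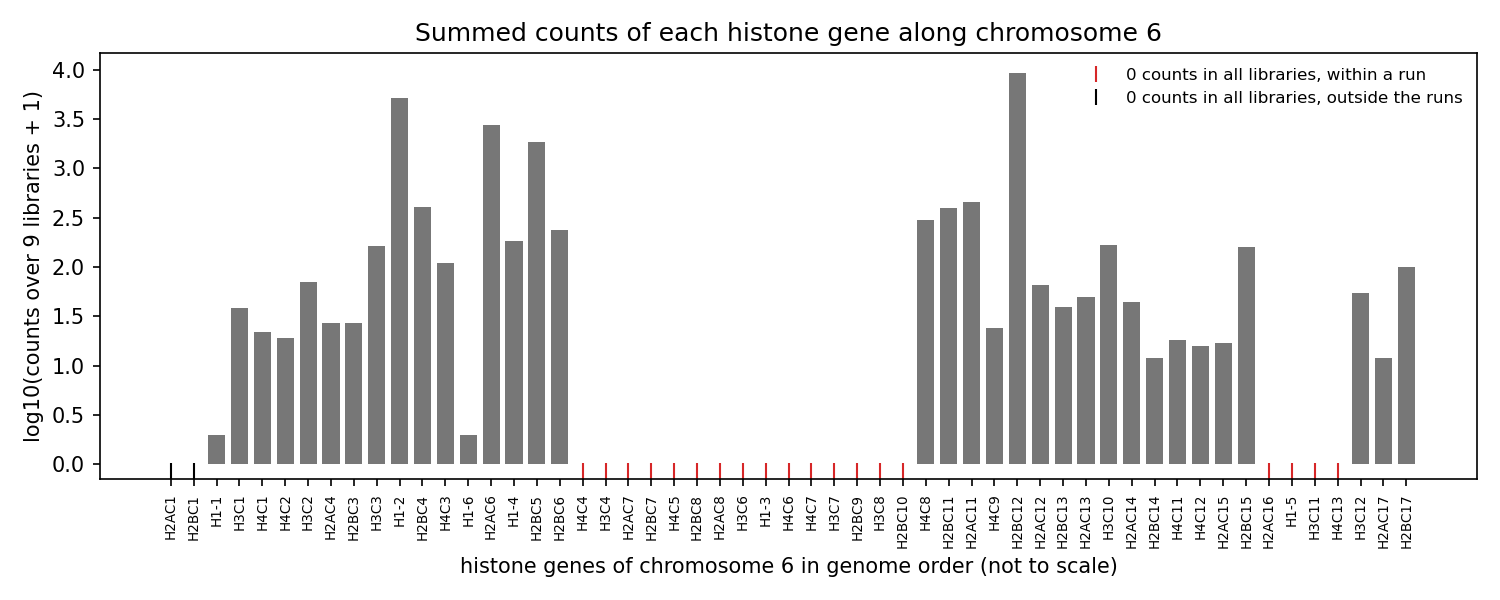
Counts of each of the 55 histone genes of chromosome 6, summed over the 9 libraries (log10 of the count plus 1), in genome order and not to scale, with ticks for genes at 0. The red ticks mark 2 unbroken runs of 15 and 4 genes, and H2BC12 and H1-2 are the highest bars.

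Compared with untreated cells, the 4 histone genes with the most counts, H2BC12, H1-2, H2AC6 and H2BC5, fell after 8 h of TEPA, and H2BC21, H2AC11 and H2BC17 fell beside them. These 7 falls were between 0.57 and 1.19 on the log2 scale. The largest was that of H2BC17, a gene of few counts that could pass the filter through its untreated libraries. H2BC18, with few counts, rose. A gene was called at a Benjamini-Hochberg adjusted p under 0.05 in edgeR's quasi-likelihood test, fitted over all 16556 genes and 9 libraries. Of the 18 genes, 7 were lower, 1 was higher and 10 were not called, where 24.5% of all genes tested were called lower, 25.2% higher and 49.6% in either direction. The members' median log2 fold change was -0.35, against -0.0013 for all genes, and the libraries of the 2 groups did not overlap for 9 of 18 members and for 57.8% of all genes. By class, 1 of 2 H1 genes, 2 of 3 H2A genes and 4 of 9 H2B genes fell, while neither of the 2 H3 genes and neither of the 2 H4 genes was called.

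At 24 h the members that were called lay above untreated cells. H2BC6, H1-4, H3C10, H2BC21, H2AC6 and H1-2 rose, by 0.30 to 1.83 on the log2 scale, and 0 members were lower in edgeR's test, in DESeq2's and at an unadjusted p under 0.05. All genes tested were called higher in 25.7% of cases and lower in 26.8% (52.5% in either direction), and 6 of 18 members were higher. The members' median was 0.37, against 0.0023 for all genes, and the groups did not overlap for 8 of 18 members and for 57.2% of all genes. Both H1 genes, 1 of 3 H2A genes, 2 of 9 H2B genes, 1 of 2 H3 genes and neither H4 gene rose. Since both times were set against the same 3 untreated libraries, the values at 8 h and 24 h are given side by side and not as separate evidence.

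Set directly against 8 h, 24 h of TEPA had the higher level for 11 of 18 members and the lower for 0, also in DESeq2 and at an unadjusted p under 0.05, with members of every class among the 11. Of all genes, 26.0% were higher, 28.8% lower and 54.8% called in either direction. The members' median was 0.75, against -0.016 for all genes, and the groups did not overlap for 11 of 18 members and for 62.0% of all genes. In bulk RNA, a change in the share of cells in S phase and a change in the level per cell cannot be told apart.

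**Figure D3:**
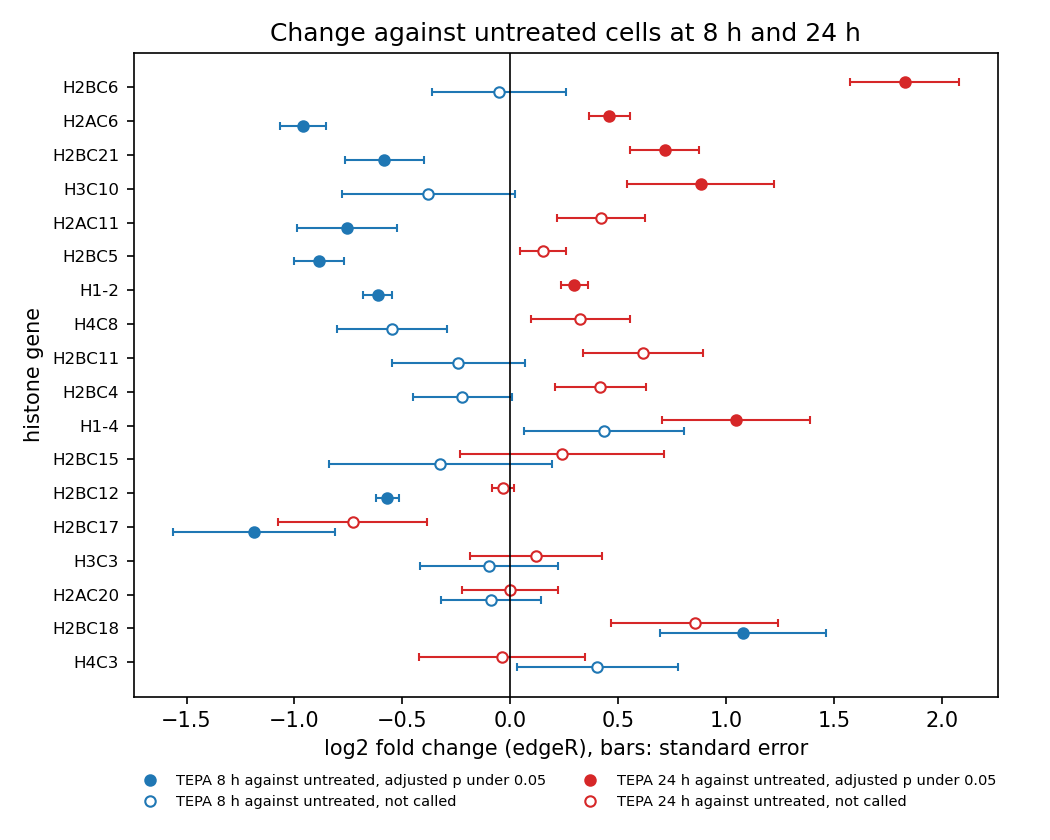
Log2 fold change (x axis) at TEPA 8 h (blue) and 24 h (red) against untreated for the 18 tested histone genes (y axis), with bars for the standard error and filled points for an adjusted p under 0.05. The filled blue points, other than H2BC18, lie left of 0 and the filled red points lie right of it.

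H1-2 (chr6:26055740-26056470 on the minus strand) encodes a linker histone, which binds DNA where it enters and leaves the nucleosome. Its level was 15.2, 14.7 and 14.1 CPM in the untreated libraries, 9.60, 10.0 and 9.09 after 8 h and 17.6, 18.7 and 17.7 after 24 h. The 3 groups did not overlap, with 8 h lowest and 24 h highest. The log2 fold change was -0.61 ± 0.07 (SE, edgeR adjusted p = 2.5e-06) at 8 h, 0.30 ± 0.06 (SE, edgeR adjusted p = 0.00098) at 24 h and 0.91 ± 0.07 (SE, edgeR adjusted p = 2.0e-08) between both times, and each call held under every other scaling, filter and test tried and with each library left out. The value at 24 h lies under a log2 fold limit of 0.5, as does that of H2AC6. H1-4, another linker histone gene, had 11, 16 and 14 counts in the untreated libraries, 18, 22 and 12 after 8 h and 33, 19 and 37 after 24 h. Its 24 h libraries all lay above the untreated ones and overlapped those at 8 h. It rose at 24 h by 1.05 ± 0.34 (SE, edgeR adjusted p = 0.017) on the log2 scale, which did not pass without TEPA 24 h replicate 3, at an edgeR adjusted p of 0.11. At 8 h its value was 0.43 ± 0.37 (SE, edgeR adjusted p = 0.36). The remaining H1 genes had 1 count in H1-1, 1 in H1-6 and 0 in H1-3 and H1-5, over all libraries.

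H2A and H2B pair as a dimer on each face of the nucleosome. The highest H2A gene, H2AC6 (chr6:26124145-26139116 on the plus strand), was at 7.20, 8.16 and 7.56 CPM in the untreated libraries, 3.77, 4.26 and 3.75 after 8 h and 10.8, 9.24 and 11.5 after 24 h. The 3 groups did not overlap, in the same order as for H1-2. H2AC6 fell at 8 h by 0.96 ± 0.11 (SE, edgeR adjusted p = 2.4e-06) on the log2 scale, rose at 24 h by 0.46 ± 0.09 (SE, edgeR adjusted p = 0.00067), and differed between both times by 1.42 ± 0.10 (SE, edgeR adjusted p = 1.7e-08). H2AC11 (chr6:27133043-27133535 on the plus strand) had 38, 55 and 62 counts in the untreated libraries, 32, 25 and 29 after 8 h and 73, 88 and 58 after 24 h. In CPM its 8 h libraries all lay below the untreated ones, while those at 24 h overlapped untreated. It fell at 8 h, where its log2 fold change was -0.75 ± 0.23 (SE, edgeR adjusted p = 0.013), which did not pass without TEPA 8 h replicate 2 or without untreated replicate 3, at edgeR adjusted p-values of up to 0.07. Between 8 h and 24 h it rose by 1.17 ± 0.22 (SE, edgeR adjusted p = 0.00033). H2AC20, of which 12.7% of the 100-base stretches occur in H2AC18 or H2AC19 as well, lay between 0.746 and 1.17 CPM in all 9 libraries, and its groups overlapped in each comparison.

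H2BC12 (chr6:27146361-27146855 on the minus strand) was the highest histone gene of the family in every library. It was at 28.2, 28.2 and 28.9 CPM in the untreated libraries, 18.3, 19.8 and 19.4 after 8 h and 28.0, 28.5 and 26.7 after 24 h. The untreated and 24 h libraries overlapped, and those at 8 h lay below all of them. The log2 fold change was -0.57 ± 0.05 (SE, edgeR adjusted p = 5.4e-07) at 8 h, -0.03 ± 0.05 (SE, edgeR adjusted p = 0.6) at 24 h and 0.53 ± 0.05 (SE, edgeR adjusted p = 6.1e-07) between both times. Of its 100-base stretches, 22.5% also occur in the gene H2BC12L, and how read pairs from such stretches were shared between both genes cannot be seen in the counts. H2BC5 (chr6:26158122-26171349 on the plus strand) was at 5.71, 5.87 and 5.25 CPM in the untreated libraries, 2.95, 3.40 and 2.75 after 8 h and 6.14, 5.63 and 6.98 after 24 h. As for H2BC12, its 8 h libraries lay below all others and the untreated and 24 h libraries overlapped. H2BC5 fell by 0.89 ± 0.12 (SE, edgeR adjusted p = 1.4e-05) on the log2 scale at 8 h, was not called at 24 h with 0.15 ± 0.11 (SE, edgeR adjusted p = 0.25), and rose by 1.04 ± 0.12 (SE, edgeR adjusted p = 1.7e-06) from 8 h to 24 h.

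H2BC6 (chr6:26172059-26184655 on the plus strand) showed another course. It had 13, 16 and 13 counts in the untreated libraries, 15, 15 and 8 after 8 h and 63, 52 and 44 after 24 h, which is 0.342 ± 0.0110 CPM without TEPA, 0.328 ± 0.0962 CPM after 8 h and 1.22 ± 0.0157 CPM after 24 h (SD, n = 3). The untreated and 8 h libraries overlapped and every 24 h library lay above them. The log2 fold change was -0.05 ± 0.31 (SE, edgeR adjusted p = 0.9) at 8 h, 1.83 ± 0.25 (SE, edgeR adjusted p = 1.7e-05) at 24 h and 1.88 ± 0.26 (SE, edgeR adjusted p = 1.4e-05) between both times, the highest of the 18 genes in the latter 2 comparisons. The annotated gene has a transcript of 4 exons and starts at 26172059, well before the RefSeq start of the histone transcript, and gene counts do not tell its transcripts apart. H2BC21 (chr1:149884459-149886682 on the minus strand), on chromosome 1, was at 1.31, 1.42 and 1.78 CPM in the untreated libraries, 0.975, 0.889 and 1.14 after 8 h and 2.53, 2.34 and 2.53 after 24 h. Its 3 groups did not overlap, with 8 h lowest and 24 h highest. It rose at 24 h, with 0.72 ± 0.16 (SE, edgeR adjusted p = 0.0013), and by 1.30 ± 0.17 (SE, edgeR adjusted p = 1.0e-05) from 8 h to 24 h. Its fall at 8 h, -0.58 ± 0.18 (SE, edgeR adjusted p = 0.015), was lost without TEPA 8 h replicate 2 or without untreated replicate 3, at adjusted p-values of up to 0.073.

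The lower H2B genes were closer to the limit of what these counts can show. H2BC17, at 16, 17 and 16 counts in the untreated libraries, 5, 7 and 8 after 8 h and 8, 13 and 10 after 24 h, fell at 8 h with -1.19 ± 0.38 (SE, edgeR adjusted p = 0.016), a call lost with DESeq2 and without TEPA 8 h replicate 1. It could pass the filter through its untreated libraries, where it was highest, so its fall is not independent of the filter. Its libraries at 24 h also lay below the untreated ones in CPM, but with a log2 fold change of -0.73 ± 0.35 (SE, edgeR adjusted p = 0.088) it was not called. H2BC18 had 13, 7 and 7 counts in the untreated libraries, 15, 20 and 19 after 8 h and 27, 16 and 10 after 24 h, and its log2 fold change was 1.08 ± 0.38 (SE, edgeR adjusted p = 0.029) at 8 h and 0.85 ± 0.39 (SE, edgeR adjusted p = 0.076) at 24 h. This single rise at 8 h was lost with DESeq2 and in 4 of 6 fits that left out a library, and 19.5% of the 100-base stretches of the gene occur in other histone genes or pseudogenes. H2BC4 had 30, 43 and 54 counts in the untreated libraries, 31, 34 and 37 after 8 h and 72, 55 and 53 after 24 h. H2BC11 had 43, 25 and 47 counts in the untreated libraries, 20, 42 and 30 after 8 h and 68, 63 and 57 after 24 h. Neither was called against untreated, and in CPM the 24 h libraries of both lay above those at 8 h. The difference between both times was 0.64 ± 0.22 (SE, edgeR adjusted p = 0.021) for H2BC4, lost in 4 of 6 fits that left out a library, and 0.85 ± 0.29 (SE, edgeR adjusted p = 0.02) for H2BC11, lost in 2 of 6. H2BC15 had between 4 and 33 counts in each library and was called in no comparison.

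H3 and H4 form the tetramer at the centre of the nucleosome, and both classes were sparse here. H3C10 (chr6:27810051-27811300 on the plus strand) had 13, 21 and 12 counts in the untreated libraries, 17, 5 and 11 after 8 h and 31, 25 and 33 after 24 h. In CPM its 24 h libraries lay above the other 6, and the untreated and 8 h libraries overlapped. It rose at 24 h with 0.88 ± 0.34 (SE, edgeR adjusted p = 0.04), a call lost with DESeq2, with the replicate number as a block and in 4 of 6 fits that left out a library, and it was higher at 24 h than at 8 h by 1.26 ± 0.36 (SE, edgeR adjusted p = 0.0077). H3C3 lay between 0.293 and 0.569 CPM in all libraries and was not called. H4C8 (chr6:26277609-26285638 on the minus strand) had 28, 30 and 43 counts in the untreated libraries, 26, 20 and 19 after 8 h and 56, 41 and 38 after 24 h. Its 8 h libraries lay below the untreated ones in CPM, but with a log2 fold change of -0.55 ± 0.26 (SE, edgeR adjusted p = 0.087) it was not called. At 24 h it was higher than at 8 h by 0.87 ± 0.25 (SE, edgeR adjusted p = 0.0068). H4C3 overlapped between the groups, at 7 to 17 counts per library.

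Neighbouring genes on opposite strands did not always share a call. H2AC6 and H2BC4 start near each other at 26124145 and 26123926 on chromosome 6, and H2AC6 was called in all 3 comparisons but H2BC4 in 1. H2AC11 and H2BC11, with starts at 27133043 and 27132795, were both higher at 24 h than at 8 h, and H2AC11 alone was called at 8 h. On chromosome 1, H2BC21 was called in all 3 comparisons and H2AC20, from the other strand of the same neighbourhood, in none. Differences between the genes of a pair were not tested.

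Summed over all members of a class, the levels were as follows. H1 was at 15.5, 15.02 and 14.5 CPM in the untreated libraries, 10.0, 10.6 and 9.41 after 8 h and 18.2, 19.2 and 18.7 after 24 h. H2A was at 9.57, 10.9 and 11.2 CPM in the untreated libraries, 6.27, 6.30 and 5.80 after 8 h and 13.7, 12.9 and 14.9 after 24 h, and H2B was at 38.5, 38.9 and 40.0 CPM in the untreated libraries, 24.97, 27.5 and 26.7 after 8 h and 42.1, 41.6 and 41.8 after 24 h. In each of these 3 classes the 8 h libraries lay below and the 24 h libraries above all untreated ones. The log2 ratio of the mean sums was -0.58 for H1, -0.78 for H2A and -0.57 for H2B at 8 h, and 0.32, 0.39 and 0.10 at 24 h. Sums of H3 were 1.01, 1.44 and 1.39 CPM in the untreated libraries, 1.60, 1.23 and 1.33 after 8 h and 1.61, 1.83 and 1.81 after 24 h. Those of H4 were 1.41, 1.07 and 1.55 CPM in the untreated libraries, 1.15, 1.12 and 1.14 after 8 h and 1.61, 1.51 and 1.81 after 24 h. The H3 sums overlapped between untreated and 8 h, with a log2 ratio of 0.11, and those of H4 overlapped between untreated and both times, with -0.24 at 8 h and 0.29 at 24 h. Over all 66 genes the mean sum was 67.3 ± 1.27, 45.1 ± 1.49 and 77.8 ± 1.15 CPM (SD, n = 3) in untreated cells, at 8 h and at 24 h, respectively.

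Leaving out the highest gene of a class turned the direction of the sum at 8 h in H1 and H4. Without H1-2 the log2 ratio of H1 was 0.40, and without H4C8 that of H4 was 0.17. The first value rests almost wholly on H1-4, with 11 to 22 counts per untreated or 8 h library and no call at 8 h. The second rests on H4C3, not called either, and on genes that did not pass the filter, so neither is read as a change of the class. For H2A it was -0.40 without H2AC6, for H2B -0.56 without H2BC12 and for H3 0.27 without H3C10. Class sums are given as levels, with no test.

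**Figure D4:**
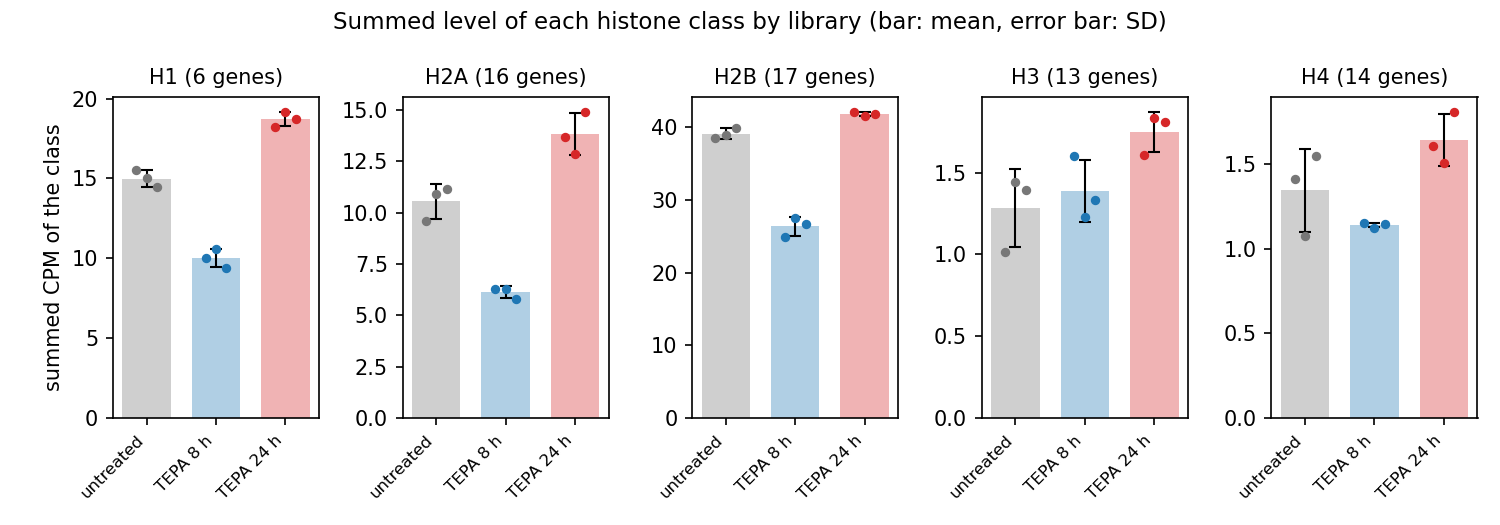
Summed CPM of each histone class in untreated (grey), TEPA 8 h (blue) and TEPA 24 h (red) cells, with points for libraries, bars for the mean and error bars for the SD of 3 libraries. H1, H2A and H2B are lowest at 8 h and highest at 24 h, while the H3 and H4 points of untreated and 8 h cells overlap.

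Members with an annotated end far beyond the stem-loop and members without one were both among the genes called. Of the 9 tested genes with such an end, 3 fell and 1 rose at 8 h, 3 rose at 24 h and 7 were higher at 24 h than at 8 h, with median log2 fold changes of -0.38, 0.46 and 0.87. Of the 9 without one, 4 fell at 8 h, 3 rose at 24 h and 4 were higher at 24 h than at 8 h, with medians of -0.10, 0.12 and 0.53. Over all genes tested, 24.5% fell and 25.2% rose at 8 h, 25.7% rose at 24 h and 26.0% were higher at 24 h than at 8 h, and with 9 genes a side nothing is read from the difference between both sides, which was not tested. The 9 without a far end include H2BC12 and H1-2, whose annotated exons end at the stem-loop. They also include H2BC6, whose annotated end lies 430 bases beyond the stem-loop, under the limit used. Polyadenylated and stem-loop transcripts are not told apart by counts per gene.

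Promoters are shown for the 4 members with the most counts, all of which fell at 8 h, and for H2BC6, which was not called at 8 h and had the highest log2 fold change at 24 h. The 250 bases before the RefSeq start (GRCh38.p14) are printed 5′ to 3′ on the gene's strand, with capitals for matches on either strand to TATAAA, the TATA box, to CCAAT, the motif bound by the factor NF-Y, and to ATTTGCAT, the octamer bound by OCT1 (POU2F1). H2BC12 and H2BC5 have 2 entries each, of which the first was used, and in H2BC12 the run TTTATAAA holds a match on each strand.
H2BC12: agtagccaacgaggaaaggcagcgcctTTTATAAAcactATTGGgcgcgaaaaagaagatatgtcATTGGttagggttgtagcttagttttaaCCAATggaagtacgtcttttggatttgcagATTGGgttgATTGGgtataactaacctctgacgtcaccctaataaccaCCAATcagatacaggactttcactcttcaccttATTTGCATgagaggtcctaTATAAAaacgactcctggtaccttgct
H2AC6: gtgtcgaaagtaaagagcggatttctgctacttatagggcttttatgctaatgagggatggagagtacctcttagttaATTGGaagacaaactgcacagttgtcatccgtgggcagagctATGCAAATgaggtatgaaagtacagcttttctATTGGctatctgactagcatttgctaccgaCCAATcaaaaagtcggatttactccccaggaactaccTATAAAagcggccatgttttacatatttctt
H2BC5: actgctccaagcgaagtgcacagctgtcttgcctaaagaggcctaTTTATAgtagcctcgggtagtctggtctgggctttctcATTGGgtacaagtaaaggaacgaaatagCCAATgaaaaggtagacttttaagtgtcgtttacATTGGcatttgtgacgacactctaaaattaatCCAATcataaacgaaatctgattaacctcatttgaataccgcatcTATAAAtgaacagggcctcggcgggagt
H2BC6: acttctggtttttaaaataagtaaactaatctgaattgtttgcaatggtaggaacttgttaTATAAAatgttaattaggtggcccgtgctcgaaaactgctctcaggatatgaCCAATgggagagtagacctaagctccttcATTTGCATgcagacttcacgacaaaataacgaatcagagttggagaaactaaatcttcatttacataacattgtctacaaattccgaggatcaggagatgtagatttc
H1-2: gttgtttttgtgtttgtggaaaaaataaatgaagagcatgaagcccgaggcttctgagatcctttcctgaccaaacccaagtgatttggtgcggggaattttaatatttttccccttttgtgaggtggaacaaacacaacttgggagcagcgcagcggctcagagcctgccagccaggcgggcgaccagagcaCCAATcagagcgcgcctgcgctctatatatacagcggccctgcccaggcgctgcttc
The printed regions are chr6:27146859-27147108 on the minus strand, chr6:26123922-26124171 on the plus strand, chr6:26157871-26158120 on the plus strand, chr6:26183511-26183760 on the plus strand and chr6:26056471-26056720 on the minus strand. A TATAAA match started 27 bases before the gene start in H2BC12, 31 in H2AC6 and 28 in H2BC5, whereas in H2BC6 it started 189 bases before. In H1-2 no exact match was found, but its printed bases hold the similar run tatatata near the start, which the search did not cover. The octamer match started 46 bases before the start in H2BC12, 108 in H2BC6 and 130 in H2AC6, and none was found in H2BC5 or H1-2.

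Over the whole family, the 300 bases from 250 before to 50 after the start were searched on both strands, in 65 RefSeq entries of members and 35116 entries of all genes. TATAAA stood in 67.7% of the members' promoters and in 11.5% of all promoters. CCAAT stood in 86.2% against 34.6%, with a match in each of the 6 H1, 15 H2A, 19 H2B and 13 H3 entries and in 3 of 12 H4 entries. ATTTGCAT stood in 15 of 19 H2B and 11 of 15 H2A entries, in 1 of 13 H3 entries and in none of the H1 and H4 entries, against 1.77% of all promoters. The H3 match is in 1 of 2 entries of H3C4, which spans the same bases as the entry of H2AC7, so both are a single promoter. These are matches of letters, and binding was not measured.

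Many histone variants are made outside S phase from polyadenylated mRNA and replace the replication-dependent proteins at set places in chromatin. The list below, which holds H2AX, was not limited to genes made in this way. Of 19 variant genes listed, 12 passed the filter. At 8 h 7 fell and 2 rose, at 24 h 4 fell and 2 rose, and between 8 h and 24 h 4 fell and 5 rose. Of all genes tested, 24.5% fell and 25.2% rose at 8 h, 26.8% and 25.7% at 24 h, and 28.8% and 26.0% from 8 h to 24 h. The median log2 fold changes of the variants were -0.12, -0.05 and -0.02. H1-10, a linker histone variant, was at 199, 160.5 and 171 CPM in the untreated libraries, 111, 126 and 126 after 8 h and 182, 202 and 184 after 24 h. Every 8 h library was lower than any other library. H1-10 fell at 8 h with -0.54 ± 0.07 (SE, edgeR adjusted p = 1.1e-05), was not called at 24 h, with 0.10, and rose between 8 h and 24 h by 0.64.

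H2AJ, a replication-independent H2A gene, fell at 8 h and rose at 24 h. Its level was 24.4, 20.2 and 21 CPM in the untreated libraries, 14.8, 17.8 and 16.7 after 8 h and 31.8, 35.4 and 31.1 after 24 h. The 3 groups did not overlap, in the order seen for H1-2 and H2AC6. Its log2 fold change was -0.41 ± 0.08 (SE, edgeR adjusted p = 0.00076) at 8 h and 0.59 ± 0.08 (SE, edgeR adjusted p = 1.4e-05) at 24 h. H3-3A, a source of H3.3, changed by -0.18 and 0.13, each called, while H3-3B, the other, was not called at either time. H2AZ1 and H2AZ2, which encode H2A.Z, and H2AX, which is phosphorylated at DNA breaks, fell at both times, by between 0.10 and 0.37 on the log2 scale. CENPA, the H3 of the centromere, was not called at 8 h and fell by 0.27 at 24 h. MACROH2A1, of the H2A class, rose by 0.18 at 8 h. H3-5, an H3.3-like gene with 99, 138 and 114 counts in the untreated libraries, 152, 114 and 159 after 8 h and 126, 112 and 102 after 24 h, rose by 0.37 at 8 h with libraries that overlapped untreated in CPM, and fell by 0.50 from 8 h to 24 h. Its sequence is close to that of H3-3B, so its counts are uncertain.

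**Figure D5:**
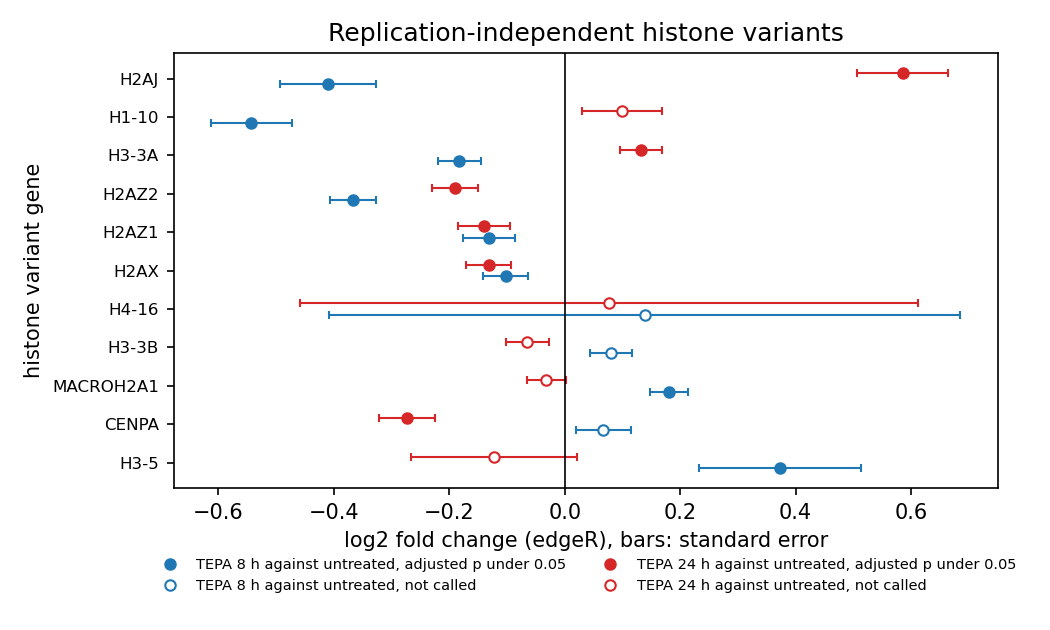
Log2 fold change (x axis) at TEPA 8 h (blue) and 24 h (red) against untreated for 11 of the 12 tested histone variant genes (y axis), with bars for the standard error and filled points for an adjusted p under 0.05. H2AJ is filled on opposite sides of 0 at the 2 times, and H1-10 is filled at 8 h.

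Genes that drive, process or degrade histone mRNA were called in both directions, at 8 h in about the shares of all genes. Of 35 such genes, all tested, 9 rose and 7 fell at 8 h, 5 rose and 9 fell at 24 h, and 4 rose and 12 fell from 8 h to 24 h, with medians of 0.01, -0.02 and -0.04. All genes tested rose and fell in 25.2% and 24.5% of cases at 8 h, in 25.7% and 26.8% at 24 h, and in 26.0% and 28.8% from 8 h to 24 h. SLBP, which binds the stem-loop, was at 93.9, 94.4 and 96.7 CPM in the untreated libraries, 80.8, 82.0 and 79.1 after 8 h and 80.8, 76.9 and 79.3 after 24 h. It was lower in every treated library, with -0.24 ± 0.04 (SE, edgeR adjusted p = 8.1e-05) at 8 h and -0.27 ± 0.04 (SE, edgeR adjusted p = 2.1e-05) at 24 h, and did not differ at the adjusted threshold between both times (-0.03, edgeR adjusted p = 0.54). NPAT, the activator of histone transcription, was not called at 8 h and rose by 0.21 at 24 h, and its partner CASP8AP2 was called at neither time. In the U7 snRNP, which directs the cut of the 3′ end, LSM11 rose by 0.46 at 8 h and LSM10 was not called, while ZNF473, which acts with SLBP in that step, fell by 0.24 and by 0.30.

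Among the genes for decay and timing, UPF1, a helicase that acts in histone mRNA decay, rose by 0.48 at 8 h and by 0.11 at 24 h, and the 3′ exonuclease gene ERI1 was not called. TUT7, which adds uridines to histone mRNA in decay, was not called at 8 h and rose by 0.35 at 24 h. SRRT, which acts with the cap-binding complex, rose by 0.47 at 8 h and fell by 0.38 from 8 h to 24 h. CCNE1 and CCNE2 encode the cyclin E that activates NPAT with CDK2. CCNE1 rose by 0.36 at 8 h and fell by 0.25 at 24 h, CCNE2 fell by 0.25 and by 0.32, and CDK2 was not called. POU2F1, whose product binds the octamer of H2B promoters, rose at 8 h from 30.9 ± 1.89 to 48.7 ± 2.75 CPM (SD, n = 3), a log2 fold change of 0.66 ± 0.06 (SE, edgeR adjusted p = 6.1e-07), and was not called at 24 h. HINFP, a factor of H4 promoters, was not called.

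Chaperones carry new histones to DNA. Of 28 such genes, 12 rose and 4 fell at 8 h, 8 rose and 9 fell at 24 h, and 8 rose and 11 fell from 8 h to 24 h, with medians of 0.10, 0.01 and -0.07. Of all genes tested, 25.2% rose and 24.5% fell at 8 h, 25.7% and 26.8% at 24 h, and 26.0% and 28.8% from 8 h to 24 h. SSRP1, a subunit of the FACT complex, was at 484, 541 and 531 CPM in the untreated libraries, 491, 510.0 and 509 after 8 h and 222, 226 and 222 after 24 h. Its 24 h libraries were the lowest 3, with a log2 fold change of -1.22 ± 0.04 (SE, edgeR adjusted p = 7.9e-12) at 24 h against -0.04 ± 0.04 (SE, edgeR adjusted p = 0.41) at 8 h. ASF1A, which hands H3 and H4 to other chaperones, fell by 0.26 at 8 h and by 0.80 at 24 h, and ASF1B fell by 0.19 at 8 h, with -0.03 ± 0.05 (SE, edgeR adjusted p = 0.62) at 24 h. CHAF1A fell by 0.11 at 24 h, CHAF1B was not called, NASP fell by 0.16 at 24 h, and HAT1, which acetylates new H4, was called at neither time against untreated. IPO4, an importin that carries H3 and H4, had 29, 48 and 36 counts in the untreated libraries, 44, 53 and 47 after 8 h and 22, 17 and 27 after 24 h. It was not called at 8 h, with 0.45, and fell by 0.84 at 24 h and by 1.29 from 8 h to 24 h. CDAN1, whose product binds ASF1, rose by 0.51 at 8 h and was not called at 24 h. HJURP, the chaperone of CENPA, rose by 0.32 at 8 h and fell by 0.17 at 24 h, and TONSL, which binds new H4, rose by 0.30 and fell by 0.45. ATRX, which acts in the deposition of H3.3, rose by 0.35 and by 0.51.

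Genes of DNA synthesis were set beside the histone genes because both belong to S phase. Of 50 S-phase genes, 12 rose and 13 fell at 8 h, 11 rose and 17 fell at 24 h, and 11 rose and 17 fell from 8 h to 24 h, with medians of -0.01, -0.03 and -0.05. At 8 h these shares are close to those of all genes tested, of which 25.2% rose and 24.5% fell, and at 24 h 25.7% of all genes rose and 26.8% fell. From 8 h to 24 h, 26.0% of all genes rose and 28.8% fell. PCNA, the sliding clamp, was at 151, 146 and 145 CPM in the untreated libraries, 123, 119.5 and 121 after 8 h and 154, 157 and 153 after 24 h. It fell at 8 h with -0.28 ± 0.03 (SE, edgeR adjusted p = 7.0e-06) and was not called at 24 h. MCM2, of the replicative helicase, fell by 0.12 at 8 h and rose by 0.12 at 24 h. RRM2, of ribonucleotide reductase, rose by 0.22 at 8 h, and CDC6, which loads the helicase, fell by 0.26 and by 0.46. TYMS, for thymidylate synthesis, fell by 0.12 at 8 h, and E2F1 rose by 0.13 at 24 h. POLE, the catalytic subunit of DNA polymerase epsilon, rose by 0.71 at 8 h, the largest change of the list, and by 0.26 at 24 h. MCM6, another helicase subunit, fell by 0.44 and by 0.35, and CDCA7 fell by 0.33 and by 0.55. UNG, which removes uracil from DNA, fell by 0.43 at 8 h and was not called at 24 h. PRIM1, of the primase, and UHRF1, which binds newly copied DNA, were not called at 8 h, and at 24 h PRIM1 rose by 0.46 and UHRF1 fell by 0.41. SLBP, CCNE1, CCNE2, CHAF1A and CHAF1B belong to this list and to one of the lists above.

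RNAs without a poly(A) tail were summed to show how much of them was counted. These are small RNAs, and whether histone mRNAs without a tail passed the selection in the same way was not tested. Of 33 such small RNA genes, 32 had a row in the table, 11 were at 0 in every library and 6 could be tested. Their summed level was 5.07 to 7.09 CPM in untreated cells, 9.40 to 10.8 CPM at 8 h and 7.83 to 11.4 CPM at 24 h, so both treated groups lay above untreated. At 8 h 3 of the 6 rose, RNU5A-1 by 0.68, SNORA73B by 1.13 and SNORD17 by 0.77, and at 24 h 1 rose, RN7SL1 by 1.18. Of all genes tested, 25.2% rose at 8 h and 25.7% at 24 h, and with 6 genes nothing is read from these counts. At 8 h the sum was thus higher while the summed histone level was lower, and at 24 h both were higher. The part of RNA selection in the histone results was not tested.

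Of the markers of the line, VIM, CD44, KRT18, ANXA1 and MKI67 had at least 9034 counts in each library, ESR1 had 2 to 9 counts, PGR had 0 and EPCAM 36 to 71. ERBB2, which the triple-negative label gives as low, had 1911 to 3532 counts. Of 3 markers of other cell types, PTPRC had 0 to 5 counts, COL1A1 518 to 627 in untreated cells, 1169 to 1311 at 8 h and 621 to 952 at 24 h, and PECAM1 136 to 153, 34 to 46 and 323 to 364, so the last 2 were not absent and moved with treatment. Their part in the histone results was not tested.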

How the data were processed

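RNA of untreated MDA-MB-231 cells was sequenced by the study beside RNA of cells treated with TEPA for 8 h or 24 h, with 3 replicates per group, paired-end reads of 100 bases and a TruSeq stranded mRNA kit. The authors used FastQC for read quality, HISAT2 for alignment to hg38, and featureCounts for strand-specific counting of read pairs over the exons of each gene name in an Ensembl annotation of GRCh38. Raw counts, not normalized, were deposited. Total counts of 34633755 to 49342659 per library limit the precision, and bounds from a count of 0 (3 counts) cover counting error only.

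From these counts, 16556 genes were retained (filterByExpr, minimum count 10) and scaled by TMM factors, and all 9 libraries were fitted with edgeR 4.0.16 (R 4.3.3), group only, with Benjamini-Hochberg adjustment over all genes tested. CPM use the TMM-scaled library sizes, and the standard error of a log2 fold change was derived from its F statistic. The study used DESeq2, which is an alternative here (version 1.42.0), beside RLE and upper-quartile factors, other filters, a log2 fold limit of 0.5, fits of 2 groups only, a block for the replicate number, mitochondrial genes left out and each library left out. The procedure was tested on simulated data. Stem-loops, exon lengths and 100-base stretches came from GENCODE v44 on hg38, in which all 66 members were matched by name, and promoters came from RefSeq.

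The members and all gene lists were chosen with earlier results of these data known. The genes named are the members that passed the filter, those others with at least 20 counts or in a run of zeros (the latter, and H1-1 and H1-6, chosen after their values were seen), fixed companion genes, and the 3 genes of each companion list with the largest change among those called in each comparison. MACROH2A1 and H3-5 were chosen after their values were seen. The values of 2 companion genes are not reported here, and they stay in the counts and medians of their lists.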

Additional observations from a re-analysis of the deposited data

Results flagged for a closer look

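The change against untreated cells differed between 24 h and 8 h for the genes below, by the direct test of 24 h against 8 h (edgeR adjusted p under 0.05). Values are log2 differences between both changes, positive where 24 h was higher. Both changes share the untreated group, so time in culture is not told apart from time with TEPA. Among the replication-dependent genes, 11 of 18 tested differed, each in the positive direction, where 54.8% of all genes tested differed and 26.0% in that direction. The difference was 1.88 for H2BC6, 1.42 for H2AC6, 1.30 for H2BC21, 1.26 for H3C10, 1.17 for H2AC11 and 1.04 for H2BC5. It was 0.91 for H1-2, 0.87 for H4C8, 0.85 for H2BC11, 0.64 for H2BC4 and 0.53 for H2BC12.

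Of the variants named, H2AJ differed by 0.995, H1-10 by 0.64, H3-3A by 0.31 and H2AZ2 by 0.18. The values were -0.50 for H3-5, -0.34 for CENPA, -0.21 for MACROH2A1 and -0.14 for H3-3B. Among the genes of histone mRNA synthesis and decay, the values were 0.37 for TUT7, -0.26 for LSM11, -0.38 for SRRT, -0.37 for UPF1, -0.56 for POU2F1 and -0.60 for CCNE1. Among the chaperones, they were -1.29 for IPO4, -0.74 for TONSL, -0.63 for CDAN1, -0.50 for HJURP, 0.15 for ATRX, -1.17 for SSRP1, -0.54 for ASF1A, -0.16 for NASP, 0.16 for ASF1B and 0.12 for HAT1. Among the S-phase genes, they were 0.36 for PRIM1, 0.36 for UNG, -0.22 for CDCA7, -0.45 for POLE, -0.47 for UHRF1, 0.35 for PCNA, 0.24 for MCM2, 0.20 for E2F1, 0.12 for TYMS, -0.35 for RRM2 and -0.20 for CDC6. Among RNAs without a poly(A) tail, RN7SL1 differed by 0.77, SNORA73B by -1.78 and SNORD17 by -1.05. No test for outlying libraries was made, since groups of 3 are too small for it.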

How the results depend on the processing

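Of 413 log2 fold changes of members under other settings, the fold limit not among them, 408 kept their side of the threshold. Of these values, 4 lost a call, 1 gained one and 0 changed sign against a call. With a library left out, these numbers were 298, 20, 6 and 0 of 324. Changes of sign in members called in neither fit, as in H2AC20 and H3C3 at 8 h, were not counted. Members called at 8 h numbered 8, and 5 to 9 with a library left out, and those higher at 8 h numbered 1, against 0 with DESeq2, 0 with 10 counts in every library and 0 to 2 with a library left out. With a log2 fold limit of 0.5, members called numbered 8 at 8 h and 11 between both times, as without it, and 4 against 6 at 24 h, where H1-2 and H2AC6 lay under it. Companion genes called fell with it from 66 to 8 at 8 h, from 62 to 7 at 24 h and from 74 to 15 between both times, since most of their changes were small.

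Class sums depended on the choice of members. Without the highest member, log2 ratios were 0.40, 1.06 and 0.66 for H1 (8 h, 24 h, and 24 h against 8 h), -0.40, 0.17 and 0.58 for H2A, 0.40 and 0.97 for H2B (24 h, and 24 h against 8 h), 0.20 and -0.074 for H3 (the same) and 0.17 and 0.073 for H4 (8 h, and 24 h against 8 h). As differences of mean log2(CPM + 0.5) over tested members, they were -0.20, 0.40 and 0.60 for H1, -0.47, 0.26 and 0.73 for H2A, -0.24, 0.30 and 0.54 for H2B and, for 24 h against 8 h, 0.18 for H4. With only members that passed the filter, H3 gave -0.21 at 8 h and 0.76 for 24 h against 8 h. Upper-quartile factors gave 0.12 for H2B at 24 h. With a library left out, H3 at 8 h ranged from -0.04 to 0.20.

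Same-numbered libraries deviated together with correlations of -0.080 to 0.038, and differently numbered ones with -0.054 to 0.073. No pairing by replicate number was seen in these values, which cannot exclude it. With the replicate block, 8, 5 and 11 members were called at 8 h, at 24 h and between both times, against 8, 6 and 11 without it, and companion genes called numbered 58, 58 and 72. Genes with few counts, such as H2BC17, H2BC18, H3C3, H4C3 and H1-4, are limited by depth.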
